A study of Mus musculus with 32 samples.

Results

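The genes described here are 9 members of the PRAME family of the mouse, Pramel4, Pramel5, Pramel6, Pramel7, Pramef6, Pramef8, Pramef12, Pramef17 and Pramef25, out of 55385 genes listed in each RNA-seq library. They are a list of names drawn up with earlier results of these data known. Genes of like name, among them Pramel1, Pramel3 and Pramef20, are not in it. The 9 were followed through all 8 groups of stage and treatment for which RNA was measured. RefSeq has since renamed part of the family, so that Pramef6 is now Pramel11, Pramef8 is Pramel12, Pramef12 is Pramel13, Pramef17 is Pramel14 and Pramef25 is Pramel16. The older names are those of the annotation used here (GENCODE M21 on GRCm38).

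PRAME genes encode leucine-rich-repeat proteins and have multiplied into clusters of near-identical copies in rodents and primates. Their RNAs are found mainly in germ cells, oocytes and preimplantation embryos. The human founder, PRAME, acts as a substrate receptor of the Cullin-2 ubiquitin ligase, in which Elongin B (Elob) and Elongin C (Eloc) hold the receptor and Rbx1 provides the RING domain. In mouse embryonic stem cells Pramel7 uses this ligase to have Uhrf1 degraded, which is the protein that brings the DNA methyltransferase Dnmt1 to replicated DNA.

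All embryos were wild type and came from in vitro fertilization of B6D2F1/J oocytes with B6D2F1/J sperm, both taken from mice aged 6 to 8 weeks. In the first experiment embryos had been cultured with A-485 at 10 µM, which blocks the acetyltransferase activity of CBP and p300, or with the solvent DMSO, from 4 h post insemination (hpi) until 20 hpi at the latest, and RNA was taken at 3 stages, the zygote, the early 2-cell and the late 2-cell stage. The late 2-cell embryos of that experiment therefore developed without the inhibitor after 20 hpi. In the second experiment late 2-cell embryos had been cultured with 50 nM trichostatin A (TSA), an inhibitor of histone deacetylases, or with DMSO, from 8 to 28 hpi. The labels also name 0 to 20 hpi as a window for TSA without tying it to samples. Each of the 8 groups had 2 libraries of pooled embryos, and the DMSO groups of the experiments were separate. Nothing in the labels says whether 2 libraries of a group came from separate fertilizations, so the tests measure the spread between libraries, which may be technical. ATAC-seq, which maps open chromatin, covered the late 1-cell and the early 2-cell stage of the A-485 experiment.

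The libraries held 13206163 to 32585987 expected counts with a median of 22730518. Expected counts are the reads that the authors' program RSEM assigned to a gene, and FPKM are fragments per kilobase of transcript, scaled to library size. The summed FPKM of 7 cumulus cell markers stayed between 0.41 and 2.11 in all libraries, whereas that of 6 oocyte transcripts was 598 or more in every library. The 6 markers of 2-cell embryos, among them Zscan4c and Zfp352, summed to 26.5 or more FPKM in every library and to 455 to 491 FPKM in early 2-cell DMSO embryos. The sum does not show that each marker was present in every library. The lowest single readings were 0 FPKM for Zfp352, 0.32 FPKM for Zscan4c and 16.75 FPKM for Tcstv1. The share of counts from mitochondrially encoded genes was 10.5% to 12.3% in the late 2-cell DMSO libraries of the A-485 experiment and 19.5% to 20.7% after A-485. It was 12.01% to 12.5% in the DMSO libraries of the TSA experiment and 15.5% to 16.3% after TSA.

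Of the 9 genes, 7 lie within 996 kb of chromosome 4 (143412426 to 144408464). In order along the chromosome they are Pramef8 (ENSMUSG00000046862.14, 143412426 to 143421091, + strand), Pramef6 (ENSMUSG00000078512.8, 143894237 to 143900380, − strand), Pramef25 (ENSMUSG00000078511.3, 143948580 to 143951016, − strand), Pramef17 (ENSMUSG00000078509.1, 143991119 to 143994369, − strand), Pramel4 (ENSMUSG00000073724.12, 144059126 to 144069327, + strand), Pramel5 (ENSMUSG00000036749.15, 144270633 to 144280488, − strand) and Pramef12 (ENSMUSG00000028591.11, 144391674 to 144408464, − strand). Pramel7 (ENSMUSG00000025839.3, chr2:87489087-87497093, − strand) and Pramel6 (ENSMUSG00000025838.12, chr2:87506565-87510872, + strand) lie side by side within 21.8 kb of chromosome 2.

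Because several of these promoters lay in open chromatin in early 2-cell DMSO embryos, 3 of them are printed. RefSeq (GRCm38.p6) gives promoter windows for 8 of the 9 genes, all but Pramef8. The 250 bases upstream of the start are shown 5′ to 3′ on the gene's strand for Pramel4 (chr4:144058875-144059124), Pramel5 (chr4:144280467-144280716) and Pramef6 (chr4:143900381-143900630). Capitals mark matches, on either strand, to TATAAG, to GGATTA (the core bound by Obox and Otx homeodomain factors), to TCAAGGNCA (the Nr5a2 motif) and to CCAAT.
Pramel4: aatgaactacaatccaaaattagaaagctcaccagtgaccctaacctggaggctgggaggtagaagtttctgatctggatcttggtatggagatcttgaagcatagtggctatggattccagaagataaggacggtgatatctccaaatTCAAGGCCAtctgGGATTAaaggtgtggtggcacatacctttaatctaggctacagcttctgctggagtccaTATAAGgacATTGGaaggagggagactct
Pramel5: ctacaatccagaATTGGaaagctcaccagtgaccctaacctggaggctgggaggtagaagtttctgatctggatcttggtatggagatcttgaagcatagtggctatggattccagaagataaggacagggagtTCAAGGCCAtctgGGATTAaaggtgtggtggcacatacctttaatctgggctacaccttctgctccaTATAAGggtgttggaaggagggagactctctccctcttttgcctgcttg
Pramef6: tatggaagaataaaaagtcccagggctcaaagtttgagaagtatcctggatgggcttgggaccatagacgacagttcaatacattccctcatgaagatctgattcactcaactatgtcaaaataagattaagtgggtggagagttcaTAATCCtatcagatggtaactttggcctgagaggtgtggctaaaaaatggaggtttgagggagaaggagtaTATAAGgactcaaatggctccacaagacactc

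TATAAG began at position −29 of Pramel4, −49 of Pramel5 and −32 of Pramef6, counted from the RefSeq start. It was present in 4 of the 8 windows (Pramef25 is the other) and in 6.65% of the 32851 promoter windows of the table. The classical TATAAA was in 0 of the 8 and in 12.4% of all windows. GGATTA was found in Pramel4 (−88), Pramel5 (−103) and Pramef6 (−103, on the opposite strand), thus in 3 of 8 windows against 6.25% of all. The Nr5a2 motif was in Pramel4 (−101) and Pramel5 (−116), 2 of 8 windows against 1.39% of all. A CCAAT box was in 3 of 8 windows and in 33.8% of all, and the motif of Dux was in 0 of 8 and in 0.0304% of all. The Pramel4 and Pramel5 windows were 81.5% identical, with 220 of 230 aligned bases the same and 40 bases in gaps, so their matches are not independent of each other. These motifs were chosen after the sequences had been seen, and a match is a description of letters, not of a bound site.

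In untreated development the 9 genes followed different courses. Pramel4, Pramel5, Pramel6 and Pramel7 were nearly silent in zygotes, appeared in early 2-cell embryos and rose again to the late 2-cell stage. Pramef6 and Pramef25 came on in early 2-cell embryos and did not rise further. Pramef12 was abundant from the start and declined, and Pramef8 moved little.

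Pramel7, the Uhrf1 antagonist, read 0.25 and 0.14 FPKM in the DMSO zygotes, 13.65 and 17.21 FPKM in early 2-cell and 121.76 and 147.76 FPKM in late 2-cell DMSO embryos of the A-485 experiment. In the DMSO embryos of the TSA experiment it read 134.63 and 154.11 FPKM. The late 2-cell DMSO groups overlapped with each other and lay far above the earlier stages. Its log2 fold change was 6.06 ± 0.33 (SE, n = 2 per group) from zygote to early 2-cell (edgeR adjusted p = 7.68e-09) and 3.04 ± 0.15 from there to late 2-cell (adjusted p = 4.74e-08).

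Its neighbour Pramel6, which resembles Pramel7 in being expressed in embryonic stem cells, had no count in any of the 4 zygote libraries. It read 7.39 and 8.19 FPKM in early 2-cell DMSO embryos and 25.02 and 45.25 FPKM in late 2-cell ones, and 36.17 and 29.88 FPKM in those of the TSA experiment. Against a floor of 3 counts over the zygote group, its early 2-cell level was at least 163-fold higher (359 counts against 0). From early to late 2-cell it rose by 2.13 ± 0.24 on the log2 scale (edgeR adjusted p = 2.13e-05).

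Pramel4 and Pramel5, both on chromosome 4 and with similar promoters, took the same course at lower levels. Pramel4 read 0.16 and 0.32 FPKM in DMSO zygotes, 8.78 and 6.61 FPKM in early 2-cell, 35.19 and 41.25 FPKM in late 2-cell DMSO embryos and 45.54 and 51.76 FPKM in those of the TSA experiment. Pramel5 read 0.57 and 0.26, 3.35 and 3.56, 15.55 and 14.86, and 14.98 and 14.58 FPKM in the same groups. Neither gene's groups of consecutive stages overlapped. The log2 steps of Pramel4 were 5.14 ± 0.36 and 2.33 ± 0.19 (edgeR adjusted p = 7.91e-08 and 1.24e-06), and those of Pramel5 were 3.77 ± 0.44 and 1.51 ± 0.27 (1.02e-05 and 0.000853).

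Pramef6 and Pramef25 read under 1 FPKM in DMSO zygotes (0.81 and 0.40 FPKM, and 0.95 and 0.42 FPKM). Early 2-cell DMSO embryos held 18.01 and 18.59 FPKM of Pramef6 and 29.71 and 31.30 FPKM of Pramef25. At the late 2-cell stage Pramef6 read 11.60 and 15.61 FPKM in the A-485 experiment's DMSO libraries and 8.93 and 8.36 FPKM in those of the TSA experiment. Pramef25 read 21.66 and 23.92, then 14.74 and 19.63 FPKM. Both therefore peaked, among DMSO embryos, at the early 2-cell stage, with steps of 4.95 ± 0.28 and 5.55 ± 0.28 from zygotes (edgeR adjusted p = 9.26e-09 and 3e-09). The later step was called for Pramef6 against the DMSO embryos of the TSA experiment (−1.03, adjusted p = 0.000232) but not against those of the A-485 experiment (−0.46, adjusted p = 0.0836). For Pramef25 it was −0.76 and −0.43 and was not called. Summed with their near copies, described further on, the step to the DMSO embryos of the TSA experiment was −0.71 for Pramef6, under 2-fold, and −1.04 for Pramef25 (adjusted p = 0.000106), past 2-fold.

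Pramef12, known for its part in male germ cells, was the most abundant of the 9 RNAs in zygotes, at 198.12 and 166.72 FPKM with DMSO. It read 67.38 and 67.60 FPKM in early 2-cell DMSO embryos, 36.75 and 44.19 FPKM in late 2-cell ones and 33.54 and 30.76 FPKM in those of the TSA experiment. Its log2 fold change from zygote to early 2-cell was −1.296 (SE 0.09, edgeR adjusted p = 4.22e-08). The next step was −0.79 (adjusted p = 0.000309, under 2-fold) or, to the DMSO embryos of the TSA experiment, −1.01 (adjusted p = 3.63e-06). An antisense transcript inside the gene, Pramef12os, was listed at 0 to 0.26 FPKM.

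Pramef17 read 2.58 and 3.00 FPKM in DMSO zygotes, 0.94 and 1.06 FPKM in early 2-cell, 8.62 and 12.21 FPKM in late 2-cell DMSO embryos and 8.50 and 13.97 FPKM in those of the TSA experiment. It was thus lowest at the early 2-cell stage, with steps of −1.38 ± 0.39 (edgeR adjusted p = 0.0105) and 3.35 ± 0.33 (5.78e-06). The first of these steps is doubtful, for leaving out the second DMSO zygote library it was −1.27 with an adjusted p of 0.0961, and summed with its near copy Gm13128 it was 0.72 (adjusted p = 0.0485). Pramef8 read 11.62 and 9.41, 14.41 and 15.67, 12.69 and 22.97, and 12.88 and 13.14 FPKM in these 4 groups, with no step called. Its zygote to early 2-cell step was 0.72 ± 0.13 (adjusted p = 0.000476, under 2-fold).

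Counted together, 6 of the 9 genes rose and 2 fell from zygote to early 2-cell, where 11.2% of the 20106 genes tested rose and 14.9% fell. The members' median log2 fold change was 4.95, and stayed 4.95 with Pramel6 set to its bound, against 0.08 over all genes. From early to late 2-cell DMSO embryos of the A-485 experiment 5 rose and 0 fell, with 15.9% and 8.92% of all genes. Against the DMSO embryos of the TSA experiment 5 rose and 2 fell, with 19.3% and 10.3% of all genes. These comparisons share the early 2-cell libraries. If libraries were scaled to their mitochondrially encoded genes instead, the median of all genes moved by −1.26 in the first step and the share of called genes that were higher from 42.9% to 13.9%, while 6 members were still called higher and 2 lower.

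**Figure D1:**
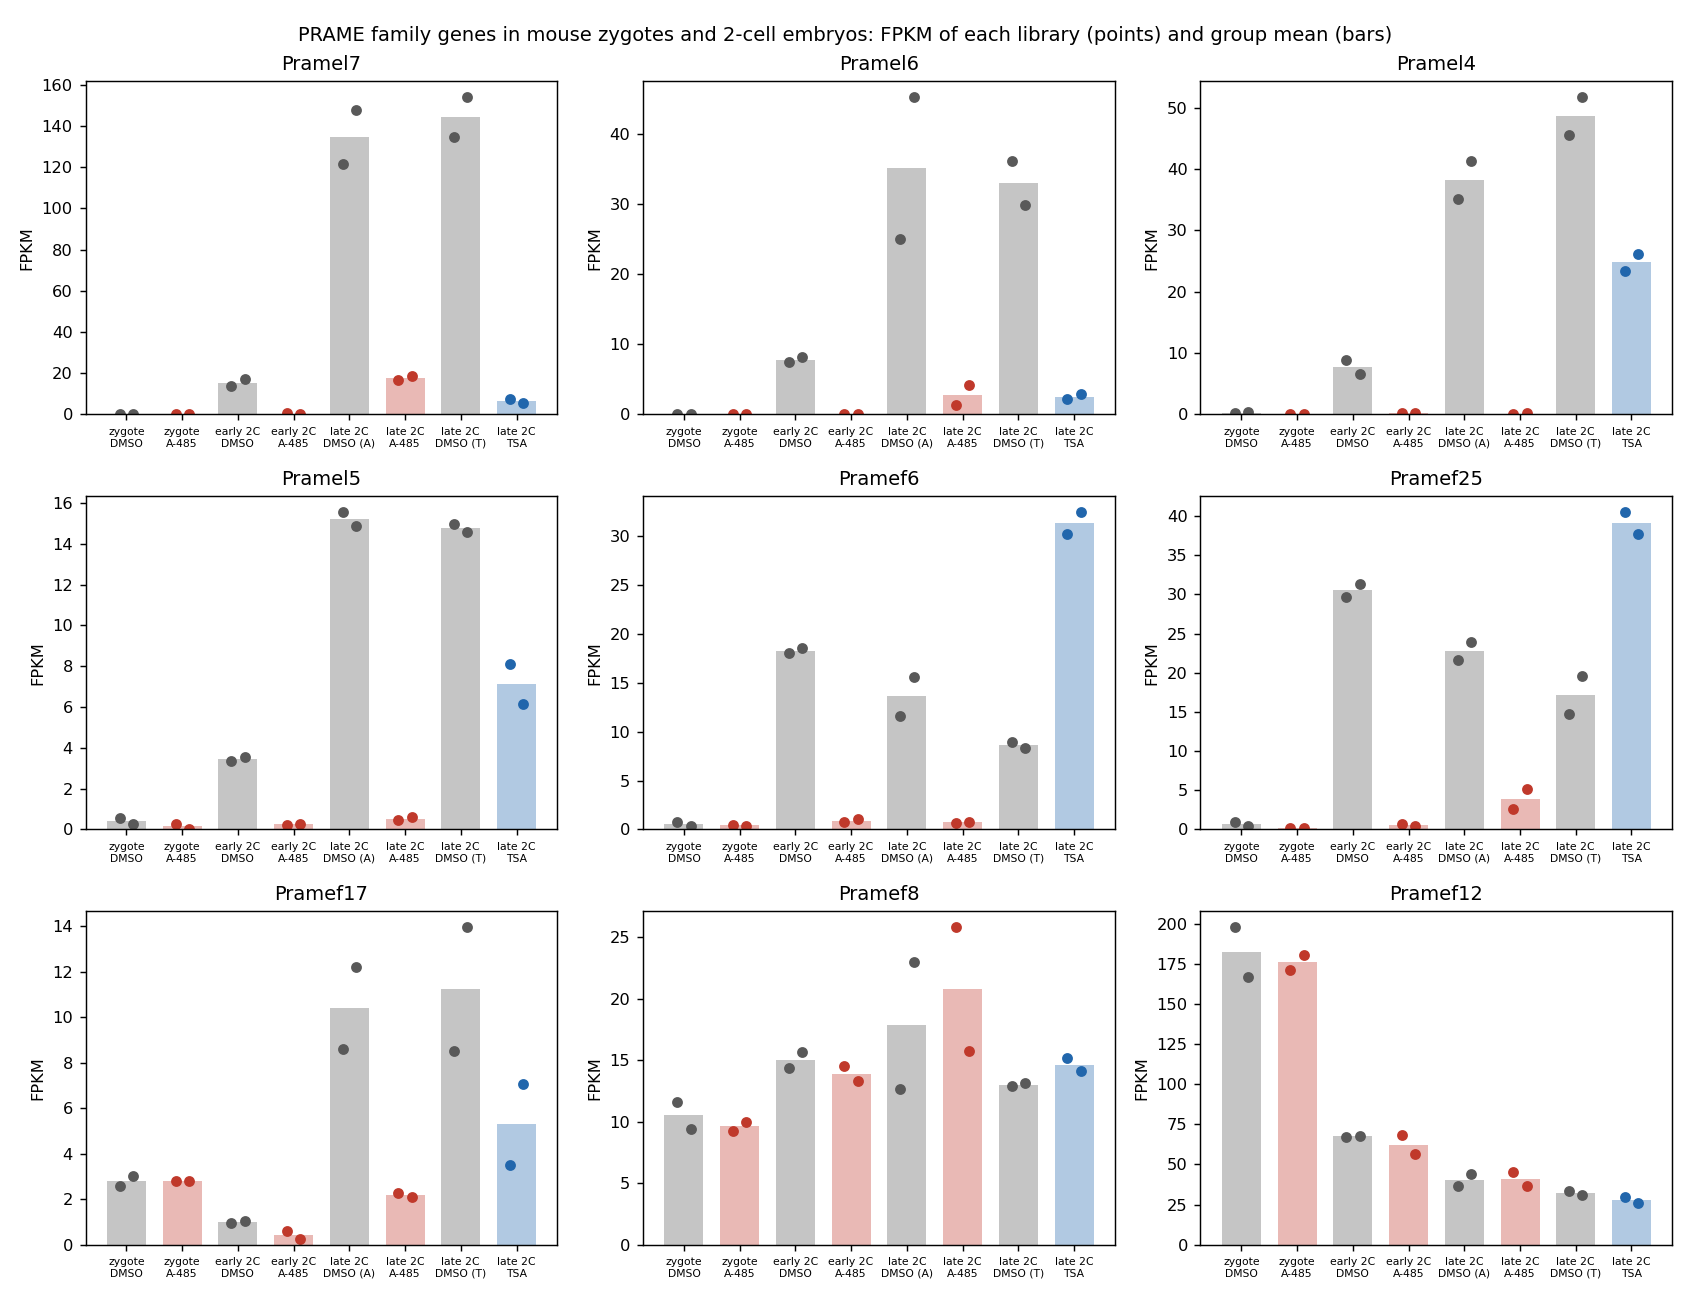
FPKM of the 9 genes in the 16 RNA-seq libraries, one panel a gene, with points for libraries and bars for the mean of each group of 2. On the horizontal axis DMSO (A) and DMSO (T) are the DMSO embryos of the A-485 and the TSA experiment. Pramel7 reaches 121.76 to 154.11 FPKM in late 2-cell DMSO embryos, and Pramef6 and Pramef25 are highest after TSA.

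In zygotes A-485 changed none of the 9 genes by the rule used (adjusted p under 0.05, fold of at least 2 and a mean of at least 1 FPKM in either group). Across the genome it called few genes, 0.0657% lower and 0.00548% higher of the 18258 tested by edgeR, while 1073 had an unadjusted p under 0.05. Pramef12, the one abundant member, read 171.70 and 180.55 FPKM with A-485 and differed from DMSO by −0.07 (adjusted p = 0.997). Pramef8 read 9.24 and 10.01 FPKM and Pramef17 read 2.82 FPKM in both libraries, close to DMSO. Of the rarer members, Pramel4 and Pramef25 had the lowest unadjusted p, but neither was called. Pramel4 had 29 counts over the DMSO zygotes and 1 over the A-485 zygotes, a ratio of 31.4 whose 95% interval for counting error alone was 5.21 to 1283. Pramef25 read 0.17 and 0.13 FPKM with A-485, which on the log2 scale was −2.20 ± 0.83. Their unadjusted p were 0.0164 and 0.0200 and their adjusted p were both 0.830. Pramel7 had 15 counts with DMSO and 2 with A-485, a ratio of 8.13 (1.89 to 73.2). Pramel6 could not be tested. Among the 8 genes tested 2 had an unadjusted p under 0.05, and DESeq2 also called 0. The median of the 8 genes tested was −0.85, which rests on such low counts, against −0.01 over all genes.

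In early 2-cell embryos 6 of the 9 genes were lower after A-485 and 0 higher, when 7.9% of 20872 genes were lower and 0.402% higher. All 6 had risen from zygote to early 2-cell with DMSO, a comparison that uses the same early 2-cell DMSO libraries. Their group ranges were far apart, and the median of the 9 log2 fold changes was −4.28, against 0.00 over all genes.

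Pramef25 dropped from 29.71 and 31.30 FPKM with DMSO to 0.69 and 0.41 FPKM, a log2 fold change of −5.76 ± 0.25 (edgeR adjusted p = 8.95e-09). Pramef6 dropped from 18.01 and 18.59 FPKM to 0.75 and 1.05 FPKM (−4.28 ± 0.23, adjusted p = 7.89e-08). After A-485 the libraries of each overlapped with its DMSO zygotes.

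Pramel7 read 0.44 and 0.00 FPKM after A-485 against 13.65 and 17.21 FPKM (−5.90 ± 0.62, edgeR adjusted p = 3.21e-05). Pramel6 had 3 counts after A-485 against 359, a ratio of 128 with a counting interval of 43.3 to 621 (adjusted p = 1.2e-05). Pramel4 read 0.15 and 0.19 FPKM (−6.33 ± 0.45, adjusted p = 9.14e-07). Pramel5 read 0.22 and 0.28 FPKM (−3.69 ± 0.49, adjusted p = 0.000207). For these 4 genes the A-485 libraries overlapped in FPKM with those of DMSO zygotes or touched them. This rests on few counts, 12 and 0 of Pramel7, 7 and 2 of Pramel4 and 7 and 13 of Pramel5 in the A-485 libraries.

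The genes with RNA already present in zygotes were the exceptions. Pramef12 read 68.31 and 56.58 FPKM after A-485, overlapping with DMSO (−0.07 ± 0.11, edgeR adjusted p = 0.777). Pramef8 read 14.53 and 13.30 FPKM, likewise overlapping (−0.09 ± 0.12, adjusted p = 0.736). Pramef17 read 0.62 and 0.25 FPKM, below both DMSO libraries, but did not pass the test (−1.22 ± 0.72, adjusted p = 0.334). The 6 markers of 2-cell embryos summed to 27.3 to 28.6 FPKM after A-485 against 455 to 491 FPKM with DMSO, and their part in these results was not tested.

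At the late 2-cell stage, after the inhibitor had been removed, 7 of the 9 were lower and 0 higher, with 16.8% of 22822 genes lower and 10.5% higher. The 7 were the 6 genes called at early 2-cell and Pramef17. The members' median was −3.12, against 0.28 over all genes.

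Pramel4 was the most affected, at 0.00 and 0.26 FPKM (0 and 8 counts) against 35.19 and 41.25 FPKM with DMSO. Its log2 fold change was −8.34 ± 0.47 (edgeR adjusted p = 5.75e-08). Pramel5 read 0.44 and 0.62 FPKM against 15.55 and 14.86 FPKM (−4.57 ± 0.49, adjusted p = 1.38e-05), and Pramef6 read 0.69 and 0.78 FPKM against 11.60 and 15.61 FPKM (−4.35 ± 0.35, adjusted p = 1.18e-06). All 3 thus read under 1 FPKM after A-485 at late 2-cell, in a range that their DMSO libraries had left at early 2-cell.

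Pramel7 read 16.90 and 18.68 FPKM after A-485, against 121.76 and 147.76 FPKM with DMSO (−3.12 ± 0.16, edgeR adjusted p = 3.06e-08). This was the level of early 2-cell DMSO embryos, whose range it overlapped. Pramel6 read 1.32 and 4.16 FPKM (−3.67 ± 0.43, adjusted p = 3.06e-05) and Pramef25 2.63 and 5.14 FPKM (−2.75 ± 0.32, adjusted p = 2.75e-05), both above their early 2-cell A-485 readings. Pramef17 read 2.26 and 2.1 FPKM against 8.62 and 12.21 FPKM (−2.45 ± 0.35, adjusted p = 0.000151).

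Pramef12 read 45.21 and 36.82 FPKM and Pramef8 25.83 and 15.72 FPKM, both overlapping with DMSO (−0.20 ± 0.15 and 0.01 ± 0.18, edgeR adjusted p = 0.315 and 0.969). With libraries scaled to the mitochondrially encoded mRNAs, which moved the median of all genes by −0.97 and the share of called genes that were higher from 38.6% to 14.6%, Pramef12 became −1.187 and Pramef8 −0.976, of which the first was called. The share of mitochondrial counts differed between these groups, as given above, and so did the 6 oocyte transcripts, which summed to 1385 to 1432 FPKM after A-485 and to 757 to 790 FPKM with DMSO. The 2-cell markers summed to 57.7 to 78.1 FPKM against 270 to 301 FPKM. The part of any of these in the result was not tested. For the 7 genes called, each of these scalings gave the same call. In bulk libraries, fewer embryos that had activated a gene and less RNA of it per embryo cannot be told apart.

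The A-485 effect differed between the stages for 3 genes by the test of the difference itself, fitted with all 8 libraries of both stages. It was smaller at late than at early 2-cell for Pramel6 (3.26 ± 0.86 on the log2 scale, edgeR adjusted p = 0.00715), Pramef25 (3.10 ± 0.42, adjusted p = 3.51e-06) and Pramel7 (2.87 ± 0.50, adjusted p = 0.000127). This made 3 above and 0 below 0, where 10.1% of 25141 genes were above and 9.9% below. The members' median difference was 0.01, against 0.44 over all genes. The Pramel6 difference rests on few counts, and fell to 2.22 without the second early 2-cell A-485 library (adjusted p = 0.117) and to 2.17 without the second late 2-cell A-485 library (adjusted p = 0.0658). For Pramel7, DESeq2 gave a like size (2.75) with an adjusted p of 0.17. The Pramel7 difference also rests on few counts, 12 and 0 in the early 2-cell A-485 libraries, and ranged from 1.78 to 8.28 leaving out 1 library. The differences of Pramef6 (0.01), Pramel5 (−0.80, adjusted p = 0.516) and Pramef17 (−1.14, adjusted p = 0.261) did not pass. That of Pramel4 was −1.93 (adjusted p = 0.125), and −7.43 (adjusted p = 0.00179) without the second late 2-cell A-485 library, the only one of that group with counts of it.

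**Figure D2:**
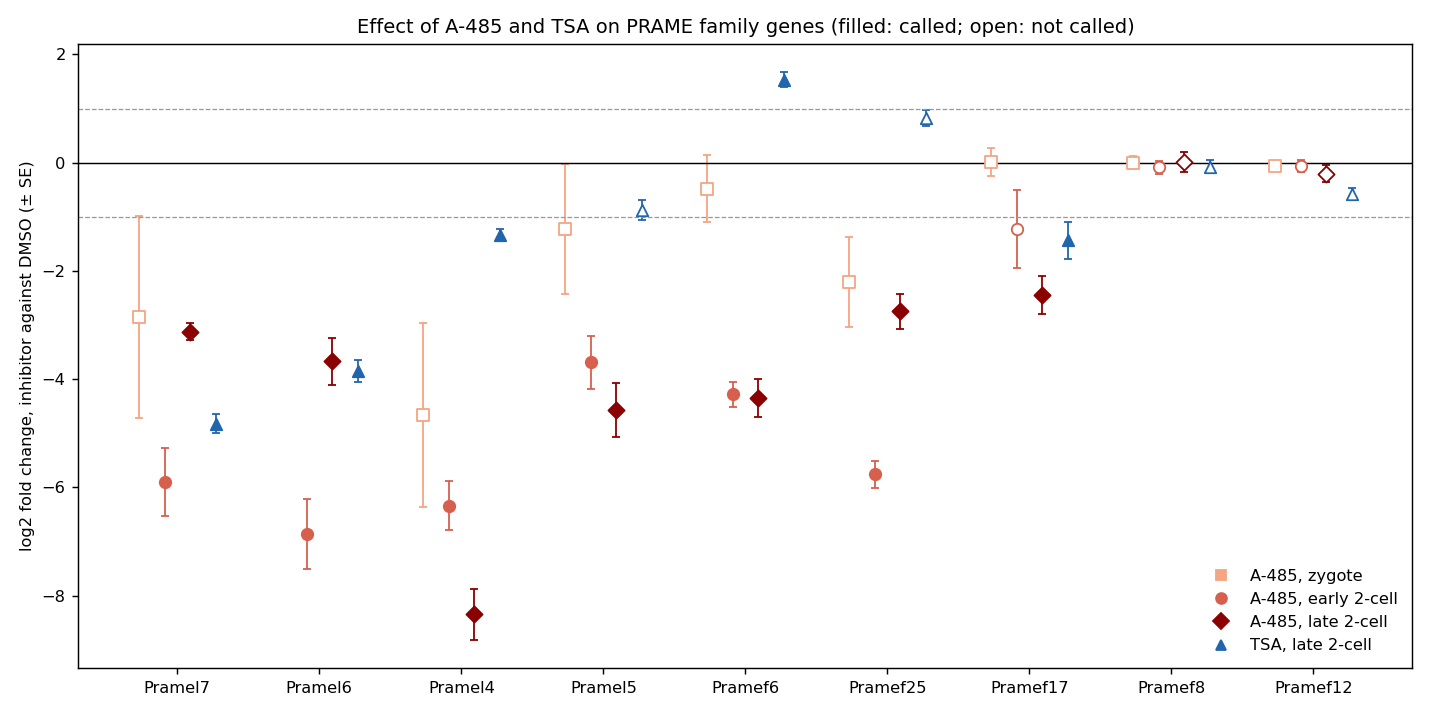
Log2 fold change (points) with its standard error (bars) of each gene in the 4 treatment comparisons, each against the DMSO embryos of its own experiment. Filled points passed the rule for a call, and dashed lines mark a 2-fold change. The Pramel genes, Pramef6, Pramef25 and Pramef17 lie below the lower dashed line at both 2-cell stages after A-485, Pramef17 with an open point at early 2-cell. Pramef6 and Pramef25 lie above 0 after TSA.

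In late 2-cell embryos 4 of the 9 genes were lower after TSA and 1 higher, with 13.9% and 13.8% of 23429 genes called lower and higher. The 1 of 9 called higher is near the share of all genes. Pramel7 and Pramel6 fell most, Pramel4 and Pramef17 fell less, and Pramef6 rose. The members' median was −0.88, against 0.13 over all genes.

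Pramel7 read 7.5 and 5.36 FPKM after TSA against 134.63 and 154.11 FPKM with DMSO, a log2 fold change of −4.82 ± 0.17 (edgeR adjusted p = 8.79e-09). That is below its early 2-cell DMSO level, with no overlap. Pramel6 read 2.21 and 2.84 FPKM against 36.17 and 29.88 FPKM (−3.85 ± 0.20, adjusted p = 1.06e-07), also below early 2-cell DMSO embryos.

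Pramel4 read 23.42 and 26.11 FPKM against 45.54 and 51.76 FPKM (−1.33 ± 0.11, edgeR adjusted p = 2.55e-06). Pramel5 read 8.12 and 6.14 FPKM against 14.98 and 14.58 FPKM, and its −0.88 ± 0.19 was under 2-fold (adjusted p = 0.00308). Pramef17 read 3.52 and 7.07 FPKM against 8.50 and 13.97 FPKM (−1.43 ± 0.34, adjusted p = 0.00566). None of these groups overlapped with its control, but neither did that of Pramef8, which was not called.

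Pramef6 rose from 8.93 and 8.36 FPKM to 30.25 and 32.47 FPKM (1.54 ± 0.13, edgeR adjusted p = 4.84e-06), the highest of all its 8 groups. Pramef25 read 40.52 and 37.71 FPKM against 14.74 and 19.63 FPKM, again the highest of its 8 groups. Its 0.83 ± 0.15 did not reach 2-fold (adjusted p = 0.00097), but did with library totals in place of TMM (1.19) and without the second DMSO library (1.06). The 2-cell markers were also higher after TSA, at 495 to 509 FPKM against 165 to 213 FPKM, as were the oocyte transcripts, at 748 to 780 FPKM against 598 to 617 FPKM, and the part of either in these results was not tested.

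Pramef12 read 29.51 and 25.87 FPKM after TSA against 33.54 and 30.76 FPKM (−0.58 ± 0.11, edgeR adjusted p = 0.00135, under 2-fold). Pramef8 read 15.21 and 14.09 FPKM against 12.88 and 13.14 FPKM, while its fitted change was −0.07 ± 0.12 (adjusted p = 0.676). The sign differs because FPKM are scaled to each library's total, and in this comparison library totals moved the median of all genes by 0.35 relative to TMM. Under library totals the share of called genes that were higher was 63.3% in place of 49.9%, Pramef8 was at 0.28 and Pramel4, at −0.97, was just under 2-fold.

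The TSA and A-485 effects at late 2-cell differed for 5 of the 9 genes. Each effect was taken against its own DMSO embryos, and the compounds had been given over different hours, so that the test compares these treatments as they were done. The TSA effect was above that of A-485 for 4 genes and below it for 1, with 12.7% and 4.59% of 26554 genes. Pramel4 differed most, by 7.13 ± 0.43 (edgeR adjusted p = 2.2e-09): it was almost absent after A-485 and at over 23 FPKM after TSA. Pramef6 differed by 5.99 ± 0.32 (adjusted p = 7.61e-10), having fallen with A-485 and risen with TSA. Pramel5 differed by 3.80 ± 0.48 (adjusted p = 1.5e-05) and Pramef25 by 3.68 ± 0.34 (adjusted p = 4.07e-07).

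Pramel7 went the other way, with a TSA effect 1.59 ± 0.22 below that of A-485 (log2 difference −1.59, edgeR adjusted p = 4.83e-05). For Pramel6 the difference was −0.07 ± 0.48 (adjusted p = 1), and for Pramef17 it was 1.12 ± 0.49 (adjusted p = 0.14). Those of Pramef8 (0.03) and Pramef12 (−0.27, adjusted p = 0.411) did not pass either. The chromosome 2 pair thus fell by over 3 on the log2 scale under both compounds. Of the chromosome 4 genes that fell with A-485, Pramel4 and Pramef17 fell with TSA, Pramef6 rose and Pramel5 and Pramef25 were under 2-fold.

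**Figure D3:**
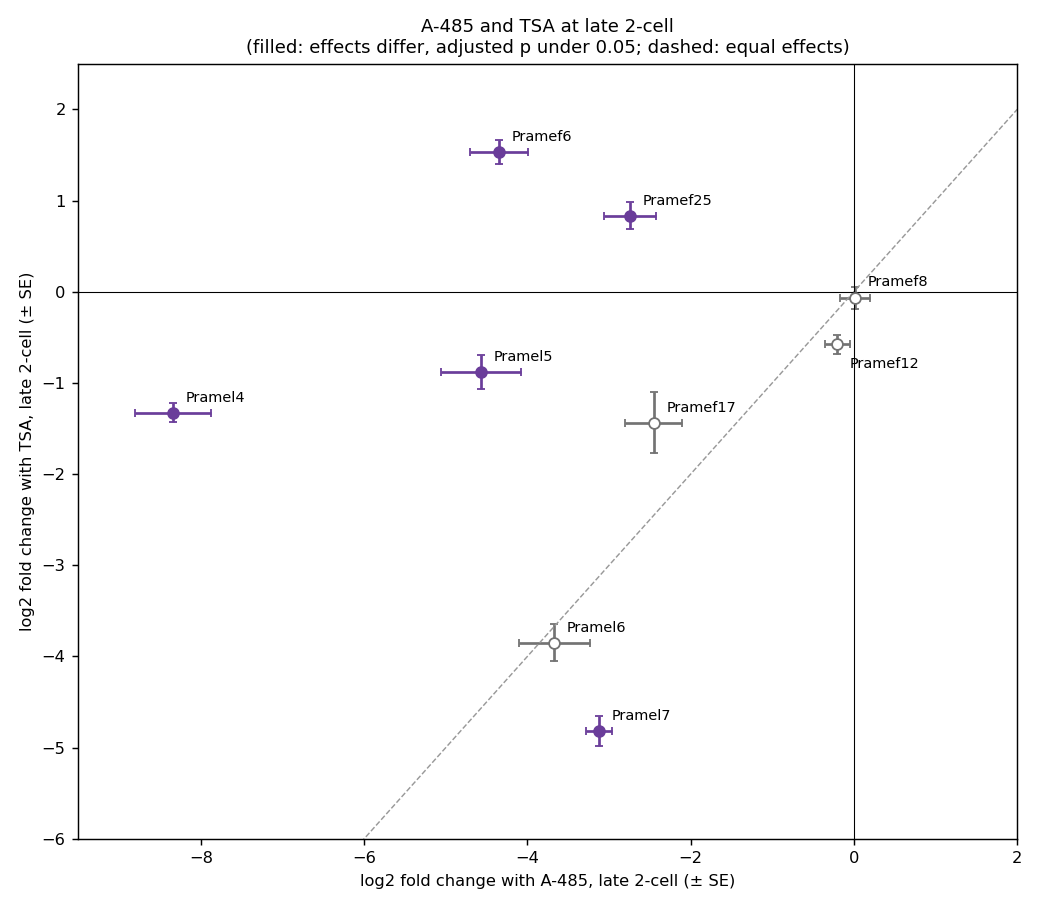
Log2 fold change after A-485 (horizontal axis) and after TSA (vertical axis) in late 2-cell embryos, 1 point a gene with standard errors as bars. Filled points differ between the treatments (adjusted p under 0.05), and the dashed line marks equal effects. Pramel4, Pramel5, Pramef6 and Pramef25 lie above the line and Pramel7 below it.

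Several of the genes share long stretches with near copies that carry only a clone name, so how reads were divided between copies bears on their values. Of all 50-base stretches of its transcripts, Pramel4 shared 87.4% with another gene, mostly Gm13102 (85.0%). Pramef17 shared 73.5%, all with Gm13128. Pramef25 shared 63.5%, with Gm13040, Gm13043 and Gm13057 (34.1% each), BC080695 (29.7%) and Gm13101 (27.8%). Pramef6 shared 33.7%, mainly with Gm13083 (29.6%), and Pramel5 25.9%, mainly with Pramel4 (22.9%). Pramel7 shared 1.43%, and Pramel6, Pramef8 and Pramef12 shared 0. The uncertainty that RSEM gave for dividing reads, as a share of the count in libraries with at least 20 counts, reached 18.5% for Pramef17, 9.91% for Pramef6, 9.38% for Pramel4, 5.99% for Pramef25 and 1.78% for Pramel5, and was 0 for Pramel6, Pramel7, Pramef8 and Pramef12.

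Summing each gene with the copies that shared at least 25% of its stretches makes its value depend less on how reads were divided. Genes sharing less stayed outside the sums, such as Gm13119 (23.7% of the stretches of Pramef25). Pramel5 had no copy at 25% and was not summed. After A-485 the sums were −6.59 and −8.49 for Pramel4 with Gm13102 at early and late 2-cell, and −4.30 and −3.55 for Pramef6 with Gm13083. For Pramef25 with its 5 copies they were −6.49 and −1.84. Pramef17 with Gm13128 was at −2.89 and −3.32, so that the sum was also called at early 2-cell (edgeR adjusted p = 0.000607). After TSA the sums were −1.27 for Pramel4, 1.45 for Pramef6, −1.93 for Pramef17 and 1.03 for Pramef25, the last now past 2-fold (adjusted p = 0.000606).

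Open chromatin was compared as lists of peaks, 1 list for each stage and treatment over both replicates, so that no test could be made. In early 2-cell DMSO embryos 5 of the 9 genes (Pramel4, Pramel5, Pramef6, Pramef8 and Pramef17) had a peak within 1 kb of an annotated start, and 31.7% of the 21951 protein-coding genes did. After A-485 1 of the 9 had one, Pramef8, while 40.9% of all genes did. At the late 1-cell stage the counts were 0 with DMSO and 1 with A-485, again Pramef8, and 26.2% and 24.7% of all genes.

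The Pramel4 peak (chr4:144058694-144059260) was the highest, with a fold enrichment of 11.6 and a −log10 q of 36.6, and held all 250 bases printed above. That of Pramel5 (chr4:144280380-144280695) had a fold enrichment of 8.60 and held 229 of the 250 bases. Pramef6 had a peak over its start (chr4:143900076-143900648, 4.65) and another 778 bp upstream (chr4:143901158-143901458, 5.23). The Pramef17 peak (chr4:143993731-143993970, 5.46) lay 399 bp inside the gene.

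Pramef8 had a peak over its start with DMSO (chr4:143412320-143413164, 7.29) and a nearly coincident one after A-485 (chr4:143412356-143413108, 7.45). It was the one member with a peak near its start in both early 2-cell lists, and its RNA level overlapped between these treatments. Of the 4 genes whose listed peak was absent after A-485, Pramel4, Pramel5 and Pramef6 had lower RNA at early 2-cell. Pramef17 by itself was called lower after A-485 only at late 2-cell, not at the stage of that list. Pramel6, Pramef12 and Pramef25 had no such peak in any list. Of these, Pramel6 (log2 fold change −6.85) and Pramef25 (−5.76) were also lower after A-485 at early 2-cell, and Pramef12 was not. A link between peaks and RNA was not tested. Pramel7 had a peak 1614 bp downstream of its nearest GENCODE start in early 2-cell DMSO embryos. The start that RefSeq gives for Pramel7 lies further downstream, so that this peak is upstream of it. Absence from a list says that no reproducible peak was called. The copies described above are also near-identical in places, where short reads cannot always be assigned, so that a missing peak there cannot be told apart from missing reads.

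**Figure D4:**
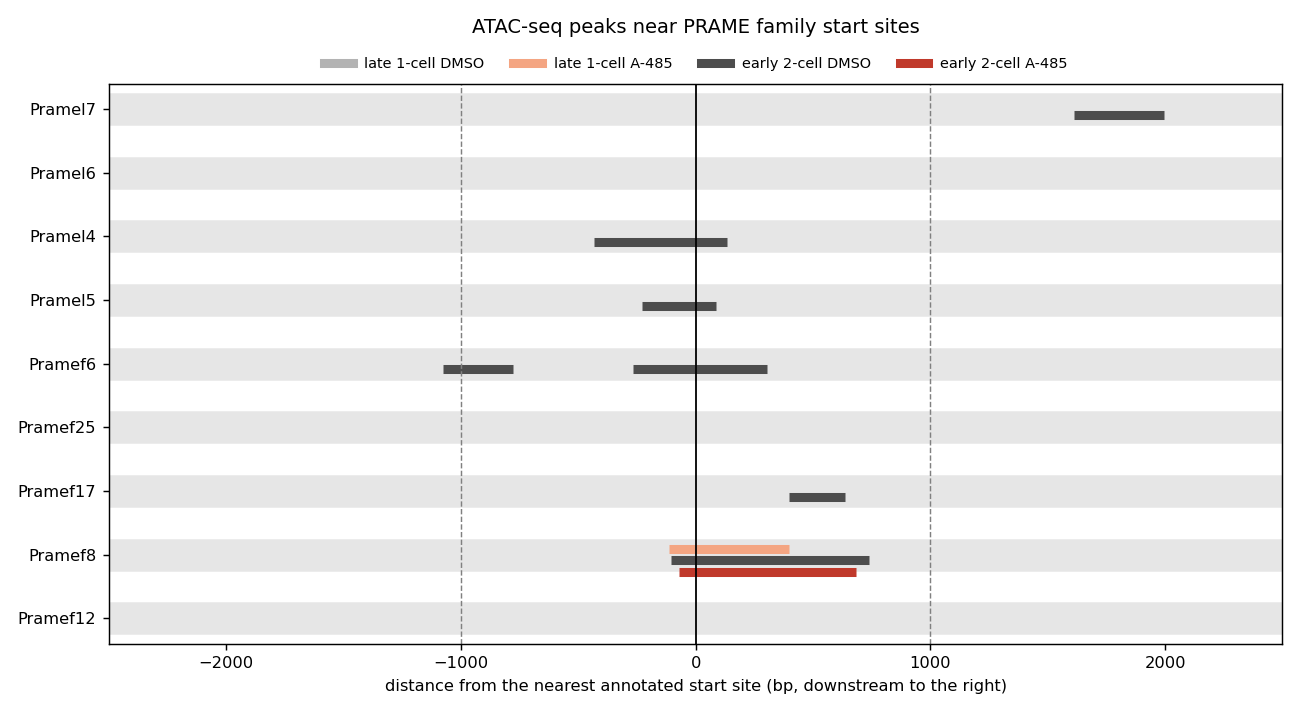
Peaks of open chromatin within 2.5 kb of the nearest annotated start of each gene, in the 4 peak lists. The horizontal axis is the distance in bp from the start in the direction of transcription, and dashed lines mark 1 kb on either side. In the early 2-cell DMSO list 6 genes have a peak in this window, and in the A-485 list 1.

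The share of the 9 genes in the family's RNA depends on which genes are counted as family. The annotation gives 19 genes a family name, and RefSeq calls 33 more genes with clone names Pramel, a list put together after the data had been seen. Among these 52 the highest means over the 16 libraries were those of Gm10436 (697 FPKM) and of the oogenesins Oog3 (670 FPKM) and Oog1 (516 FPKM), which are RNAs of oocytes. Pramef12 (78.7 FPKM) ranked 9 and Pramel7 (39.9 FPKM) ranked 12. The 9 made up 3.40% to 3.81% of the summed FPKM of the 52 in DMSO zygotes, 3.96% in early 2-cell and 12.5% to 13.9% in late 2-cell DMSO embryos. After A-485 they made up 1.81% to 2.08% at early 2-cell and 3.05% to 3.45% at late 2-cell. With TSA the share was 5.23% to 5.67%, against 13.2% to 14.0% with DMSO. Over the 19 named genes alone the shares were higher, at 11.1% to 11.8%, 9.02% to 9.04% and 24.4% to 25.9% at the 3 stages with DMSO.

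The 10 other genes with a family name were tested in the same way. None of Oog1, Oog2 and Oog3 was called in any of the 4 treatment comparisons. Oog2 was higher after A-485 at late 2-cell, but under 2-fold (0.75 ± 0.17, edgeR adjusted p = 0.00494). Of the 8 of these 10 that could be tested at the 2-cell stages, 1 was lower after A-485 at early 2-cell, Pramel1 (−2.60, edgeR adjusted p = 4.55e-05). It was also the 1 lower at late 2-cell (−1.11). Of all genes 7.9% and 16.8% were lower in these comparisons. After TSA 0 of the 8 were lower and 1 higher, Prame (3.98 ± 0.89, adjusted p = 0.00419), with 13.9% and 13.8% of all genes. Counts of 0 or 1 of 8 are near these shares. The summed count of all 19 changed by 0.08 and −0.10 with A-485 at early and late 2-cell and by −0.32 with TSA (adjusted p = 0.000102), while the sum of the 9 changed by −0.75, −1.67 and −0.98. Of the 33 genes with clone names, 22 were lower and 0 higher after A-485 at early 2-cell, where 7.9% and 0.402% of all genes were. At late 2-cell 11 were lower and 3 higher, with 16.8% and 10.5% of all genes. After TSA 5 were lower and 15 higher, with 13.9% and 13.8% of all genes.

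Of the ligase and methylation partners of the family, Cul2, Rbx1, Elob, Eloc, Uhrf1 and Dnmt1, none was called after A-485 in zygotes or early 2-cell embryos (edgeR, 6 tested each). Eloc was already lower at early 2-cell, but under 2-fold (−0.54 ± 0.13, edgeR adjusted p = 0.0139). At late 2-cell 3 of the 6 were lower after A-485, where 16.8% of all genes were, Cul2 (−1.32 ± 0.24, adjusted p = 0.00104), Elob (−2.79 ± 0.61, adjusted p = 0.00338) and Eloc (−1.20 ± 0.18, adjusted p = 0.000204). The same 3 were lower after TSA, with 13.9% of all genes, at −1.41, −1.67 and −2.43. The RNA of Uhrf1, whose protein Pramel7 directs to degradation in stem cells, was at −0.17 after A-485 (adjusted p = 0.378) and 0.17 after TSA. In DMSO embryos Uhrf1 RNA fell by 1.56 on the log2 scale from zygote to early 2-cell and by a further 1.44 to late 2-cell. Dnmt1 RNA fell by 3.09 in the first of these steps. Pramel7 rose over the same stages, and a link between these RNAs was not tested.

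Over the 16 libraries the genes with the most similar course to each member were found by Pearson's r of log2(FPKM + 0.1) among 19675 genes. The libraries share stages and treatments, so r is a description. For Pramel7 these were Clmp (0.986), an adhesion molecule, and Trim43a (0.985), a gene of 2-cell embryos, and for Pramel6 Trim43a (0.987) and Zfp949 (0.986). Pramel4 was closest to Gm48436 (0.985) and Gm49236 (0.980), and Pramel5 to Apol7b (0.980) and Zc3h12a (0.978). Pramef6 was closest to Gm45551 (0.986) and Gm28826 (0.985), and Pramef25 to Gm6189 (0.991) and Gm13498 (0.989). For Pramef12 they were 2700049A03Rik (0.990) and D6Ertd527e (0.988), and for Pramef17 Tut7 (0.964), which adds uridines to RNA, and Smc3 (0.963), a cohesin subunit. Pramef8, whose level varied little, had the lowest, Snord15a at 0.907 and an unnamed gene at 0.891.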

How the data were processed

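Total RNA-seq libraries had been made with the SMART-Seq Stranded Kit. The authors trimmed reads (Trimmomatic 0.39), aligned them to GRCm38 with STAR 2.7.8a and quantified genes with RSEM 1.3.1. The deposited values used here are each gene's expected count, which is not normalized, its FPKM, scaled by the authors to effective length and mapped fragments, and RSEM's posterior SD of the count. The strand setting of the counting is not given in the sources used here. For ATAC-seq, the authors deposited 1 list of reproducible peaks a stage and treatment (ENCODE pipeline), with a score, a fold enrichment and a −log10 q for each peak. The paper's text on ATAC-seq names no build. The labels list GRCm38 and mm10, and the share of peaks within 1 kb of a GENCODE M21 start in the early 2-cell DMSO list was 29.0%, against 14.7% after moving them by 100000 bp. H3K27ac samples were not analysed here.

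Expected counts were rounded and tested in R 4.3.3 by edgeR's quasi-likelihood method (version 4.0.16), with TMM factors and Benjamini-Hochberg adjustment over all genes with at least 10 counts over the libraries fitted. Only the groups of a comparison entered its fit. Genes were called where the adjusted p was under 0.05, the change 2-fold or more and one group's mean at or above 1 FPKM, and a difference of 2 effects needed the adjusted p alone. Log2 fold changes stand with their SE, and levels are FPKM as deposited. Counting intervals are exact at 95%, floors are 3 counts, and both cover counting error only. With 2 libraries a group, leaving one out leaves a lone library that is assumed to vary like the others. Replicate libraries differed by more than sampling noise (chi-square per degree of freedom 8.99 to 18.0).

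The alternatives were DESeq2 1.42.0, library totals, median-ratio factors, scaling to mitochondrially encoded genes, no count filter, no FPKM cutoff, 1 fit of all 16 libraries, a replicate block, each library left out, a distance of 2.5 kb, a −log10 q of at least 5 and a pseudocount of 1. Scaling to mitochondrially encoded mRNAs and summing near copies were added after seeing the data. All 9 genes are described. For each, the 2 other genes with the highest r were named, and of the other family genes the 3 most abundant. Scripts were tested on simulated data. The 9 genes and the lists of family, partner and marker genes were chosen with earlier results of these data known.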

Additional observations from a re-analysis of the deposited data

Results flagged for a closer look

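The A-485 effect at late 2-cell minus that at early 2-cell passed its own test for 3 genes, with a log2 difference of 3.26 for Pramel6, 3.10 for Pramef25 and 2.87 for Pramel7. The TSA effect minus the A-485 effect at late 2-cell passed for 5 genes. It was 7.13 for Pramel4, 5.99 for Pramef6, 3.80 for Pramel5, 3.68 for Pramef25 and −1.59 for Pramel7.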

How the results depend on the processing

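Of 603 values of called results under the alternatives, 593 kept their direction and their call, 9 lost the call and 1 turned. Of 456 values of results not called, 21 gained a call and 53 changed sign. The cause of the changes below was not tested, except that scalings shift all genes alike. Numbers of called members that moved by over 1.5 times were those higher after TSA (2 with library totals, 1 to 2 leaving out 1 library), lower from zygote to early 2-cell (1 to 2) and from early 2-cell to the DMSO embryos of the TSA experiment (0 to 2), and those whose A-485 effect was lower at late 2-cell (2 and 5 scaling to mitochondrially encoded genes and mRNAs, 1 without the count filter, 0 to 1 leaving out 1 library). Leaving out 1 library also gave 4 to 5 lower after TSA, 2 to 3 with an A-485 effect higher at late than at early 2-cell and 4 to 5 with a TSA effect above that of A-485, and with library totals Pramel4 (−0.97) was no longer called after TSA.

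Scaling to mitochondrially encoded genes, then to their mRNAs, gave Pramef12 0.041 and 0.21 and Pramef8 0.10 and 0.27 in zygotes with A-485, Pramef8 −0.64 and −0.98 in late 2-cell with A-485, and −0.55 and −0.61 from zygote to early 2-cell. For the A-485 effect at late minus early 2-cell it gave Pramef6 −0.63 and −1.047 and Pramef8 −0.46 and −0.87. For TSA minus A-485 it gave Pramel6 0.48 and 0.64 and Pramef12 0.25 and 0.43. The share of called genes that were higher went from 50.4% to 23.2% and 15.1% for the first of these differences and from 73.5% to 91.8% and 94.2% for the second, and in zygotes from 7.69% to 50.0% with the mRNAs.

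With library totals Pramef8 was at 0.28 after TSA and Pramef12 at 0.073 for late minus early 2-cell. DESeq2 and median-ratio factors gave −0.075 and −0.073 for Pramef6 (late minus early) and −0.11 both for Pramef8 (TSA minus A-485). One fit of all libraries gave 0.060 for Pramef8 after TSA and −0.095 for Pramef6 (late minus early), and no count filter −0.030 for the latter. Near copies summed gave 0.35 for Pramef6 in zygotes and 0.72 for Pramef17 from zygote to early 2-cell, and from early 2-cell to the DMSO embryos of the TSA experiment the Pramef6 call was lost (−0.71) and a Pramef25 call gained (−1.04).

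Leaving out 1 library gave in zygotes with A-485 −0.16 to 0.026 for Pramef12, −0.089 to 0.083 for Pramef8, −0.11 to 0.14 for Pramef17 and −0.88 to 0.072 for Pramef6. Pramef12 ranged from −0.25 to 0.10 at early 2-cell with A-485, and Pramef8 from −0.12 to 0.21 at late 2-cell with A-485, −0.15 to 0.014 with TSA and −0.21 to 0.13 from early to late 2-cell. Late minus early 2-cell ranged from −0.34 to 0.20 for Pramef6, −0.34 to 0.086 for Pramef12 and −0.17 to 0.22 for Pramef8, and TSA minus A-485 from −0.15 to 0.18 for Pramef8 and −0.67 to 0.95 for Pramel6. Without the first early 2-cell DMSO library Pramef12 (−0.99), and without the second late 2-cell DMSO library of the TSA experiment Pramef12 (−0.99) and Pramef6 (−0.99), were just under 2-fold from early to late 2-cell.

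The sum of the 9 genes in place of the 19 was −0.75 and −1.67 with A-485 at early and late 2-cell, −0.31 from zygote to early 2-cell and 0.56 and 0.62 to late 2-cell. With a pseudocount of 1, 5 of the 18 most similar genes were the same. Genes called in zygotes were 12 lower and 1 higher, and 12 to 45 and 0 to 14 under the alternatives. Other counts over all genes that moved by over 1.5 times were early 2-cell higher with A-485 (84, up to 161), late 2-cell with A-485 lower (3824, up to 6874) and higher (2406, down to 1177), zygote to early 2-cell lower (3002, up to 8196) and higher (2257, down to 1270), the A-485 effect late minus early below 0 (2489, up to 6287) and above 0 (2532, down to 1118), and TSA minus A-485 below 0 (1218, 412 to 1901) and above 0 (3380, up to 6639).

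The replicate numbers pair nothing in the labels, and deviations of same-numbered libraries correlated at −0.027 to 0.084. With the replicate block 79 of 80 values kept their call, and the Pramel4 difference of A-485 effects (−1.94, adjusted p = 0.0388) gained one, which made 1 member below 0. With 2 libraries a group, low counts limit the zygote comparison most.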
